A study of Mus musculus with 7 samples.

Results

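Integrins and the proteins that join them to the cytoskeleton were examined in embryonic mouse neocortical cells with and without a conditional Sox9 expression construct. The 40 genes were taken by symbol from the 38124 genes of the count table: 13 integrin alpha subunits, 8 integrin beta subunits, 5 matrix receptors that are not integrins and 14 focal adhesion proteins. They were listed by name and not by any measured value, and 38 of them passed edgeR's filter on low counts and were tested among 16522 genes. The 2 that did not pass were Itgb3 and Ilk.

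The libraries were made from neocortex of embryonic day (E) 15.5 embryos of the Tis21-CreERT2 line, heterozygous for a Tis21 allele in which the first exon is replaced by the tamoxifen-dependent recombinase CreERT2. Every dam received tamoxifen, and the embryos were electroporated at E13.5 and collected 48 hr later. Both constructs carry, behind the ubiquitous CAG promoter, a floxed membrane GFP followed by a nuclear RFP, so that RFP appears only where Cre has acted. The control construct (3 libraries, replicates 1, 2 and 4) carries nothing else, and the conditional Sox9 expression construct (4 libraries, replicates 1 to 4) has the Sox9 coding sequence before the RFP. The study's methods state that cortices of several embryos were pooled for a sort and that the cells with high RFP fluorescence were sequenced. Loss of 1 Tis21 allele, tamoxifen, electroporation and the RFP gate were thus shared by both groups, and Cre acted where Tis21 is expressed, in progenitors of the basal and neurogenic lineages.

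An integrin is a pair of 1 alpha and 1 beta subunit that spans the plasma membrane. The alpha subunit largely sets which matrix protein is bound, and Itgb1 is the partner of most of the alpha subunits listed here. Inside the cell, talins and kindlins bind the beta tail and activate the receptor, the complex of Ilk, Lims1 (PINCH) and Parva (parvin) links it to actin, and focal adhesion kinase (Ptk2), Src, paxillin (Pxn) and p130Cas (Bcar1) relay the signal. In the developing neocortex, integrins and dystroglycan (Dag1) anchor radial glial endfeet in the pial basement membrane, and integrin signalling takes part in the proliferation of basal progenitors.

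The depth was 11592511, 12907778 and 10465562 counts in control replicates 1, 2 and 4. It was 6670137, 10520214, 8187700 and 4429704 counts in Sox9 replicates 1 to 4. Apart from Sox9 replicate 2, every labelled Sox9 library was shallower than every control. The part of depth in the differences below was not tested. Sox9 mRNA overlapped between the groups, with the lower mean under the Sox9 label: it had 34.6, 89.2 and 67.9 CPM (read counts relative to the depth of each library, TMM-scaled) in control replicates 1, 2 and 4 and 50.8, 41.1, 31.0 and 37.1 CPM in Sox9 replicates 1 to 4, with a log2 fold change of -0.68 (SE 0.25, edgeR adjusted p = 0.0493), so the groups are called here by their labels. Other genes did differ between the groups: Olig2 was at 0 to 0.174 CPM in the control and 0.567 to 3.296 CPM in the libraries labelled Sox9 (edgeR adjusted p = 0.00371; 0.276 with cyclic loess), and Eomes at 25.2 to 44.5 and 6.14 to 9.75 CPM (edgeR adjusted p = 4.87e-05; 0.000269 with cyclic loess). By edgeR's quasi-likelihood test with Benjamini-Hochberg adjustment over all genes, at an adjusted p under 0.01, higher calls made up 11.3% of the genes tested and lower calls 3.43% (throughout, higher and lower refer to the libraries labelled Sox9). The higher calls were most frequent among weakly expressed genes: 20.6% of the genes with an average log2 CPM under 1 and 22.8% of those from 1 to 3 were higher, against 3.24% of those from 3 to 6 and 0.6% of those at 6 and above. Lower calls made up 0.0916%, 1.02%, 4.59% and 8.05% in the same order. A set of 1323 olfactory and vomeronasal receptor genes, which serve sensory neurons of the nose, had a mean level of 0.0265 CPM per kilobase of exon in the control and 0.0811 in the labelled Sox9 libraries, a ratio of 3.06 or 1.61 on the log2 scale. The 8 neuron markers summed to 12541–15632 CPM in the control and 11544–13406 CPM in the labelled Sox9 libraries, and the 5 intermediate progenitor markers to 219–267 and 122–151 CPM, with Eomes, Btg2 and Mfap4 called lower. The 8 radial glia markers summed to 551–1071 and 263–403 CPM and the 6 astrocyte markers to 141–333 and 45.9–74.1 CPM. The astrocyte sum was mostly Aldoc (a mean of 229.7 CPM in the control), which with Aldh1l1 was called lower, while S100b and Slc1a2 of the same list were called higher and Gfap, at 0 to 0.191 CPM in the control and 0.335 to 1.099 CPM in the libraries labelled Sox9, was not tested. Of the markers of other cell types, the sums for endothelial cells (4.49–11.8 against 15.7–42.0 CPM), mural and meningeal cells (8.41–8.86 against 12.4–23.9 CPM), oligodendrocyte precursors (0.610–1.39 against 9.502–22.8 CPM), megakaryocytes and platelets (1.62–2.64 against 6.24–7.71 CPM, with Treml1 at 0) and choroid plexus (1.04–1.42 against 8.88–13.3 CPM) were above the control in every labelled Sox9 library. Those of microglia (10.5–35.9 against 17.6–51.8 CPM) and erythroid cells (2.10–24.7 against 14.6–94.8 CPM) overlapped between groups. The part of these shifts in the results on integrins was not tested.

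Of the 38 genes tested, 6 were called higher in the libraries labelled Sox9 (15.8%, beside 11.3% of all genes), 1 was called lower (2.63%, beside 3.43%) and 31 were not called. The 6 were the alpha subunits Itga7, Itga11 and Itga2, the beta subunit Itgb6, the hyaluronan receptor Cd44 and the kindlin Fermt1, and the lower gene was the parvin Parva. At an unadjusted p under 0.05, 14 were higher (36.8%) and 3 lower (7.89%), beside 26.8% and 17.3% of all genes. DESeq2 called 7 higher and 1 lower, beside 11% and 7.42% of all genes it tested. Every labelled Sox9 library lay above every control for 12 of the 38 and below for 3, which was so for 22.9% and 16.4% of all genes. A positive log2 fold change was seen for 26 and a negative one for 12; the median was 0.41, where that of all genes tested was -0.0031. The higher calls were here too mostly among weakly expressed genes. Of the 18 genes with a mean level of at least 1 CPM per kilobase over all libraries, 1 was higher and 1 lower (median -0.083 on the log2 scale). Of the 20 tested below that level 5 were higher (median 1.19). The changes themselves help to set this split, so it describes the calls and tests nothing. Fermt1 (0.358 in the control and 1.49 under the Sox9 label), Itga3 and Itga5 passed the cut only through the labelled Sox9 libraries. Parva (1.73 and 0.676) passed it only through the control. Beside genes of like average expression, 2 of the 7 tested integrin and adhesion genes under a log2 CPM of 1, 10 of the 17 from 1 to 3, 8 of the 13 from 3 to 6 and 0 of the 1 above 6 exceeded the median log2 fold change of all genes in their range. With cyclic loess normalisation, which removes a trend of fold change with expression between libraries, 2 (Itga11 and Fermt1) were called higher and 0 lower. Of all genes, 2.2% and 1.72% were called in that fit, and the median log2 fold change of the 38 was 0.082. The cyclic loess fit also added a prior count of 2 before the logarithm and used limma-trend in place of edgeR's count test. The parts of normalisation, prior count and test in its smaller values and lost calls were not separated. In bulk RNA, more cells of a type and more RNA per cell cannot be told apart, and this holds for every gene below.

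**Figure D1:**
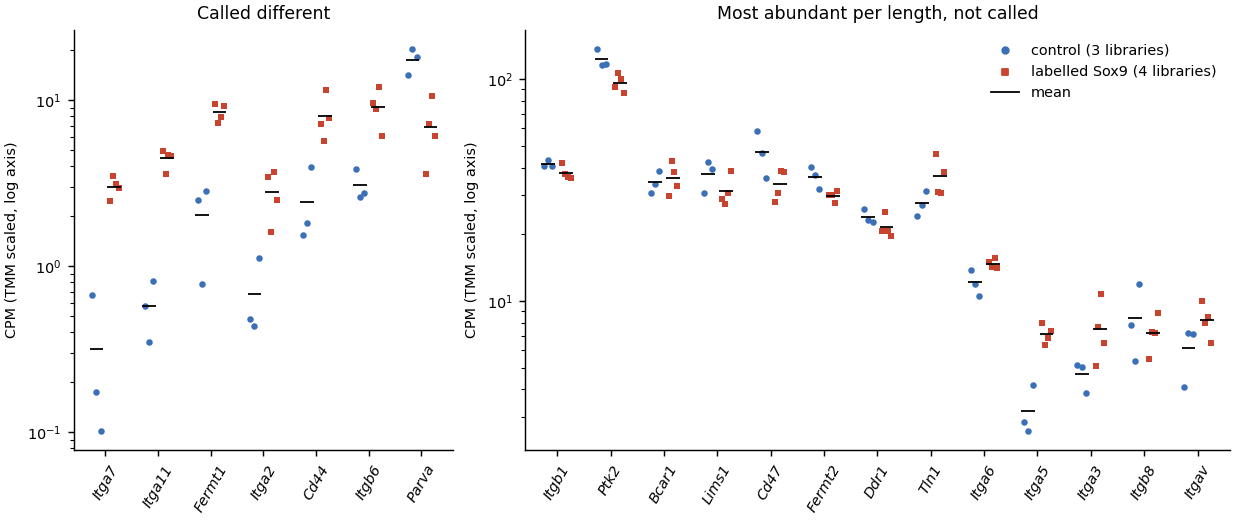
CPM in each control library (circles) and each library labelled Sox9 (squares), with the group mean (line), on logarithmic axes, for the 7 called genes (left) and for 13 abundant genes that were not called (right). The groups do not overlap for any of the 7 called genes, and for Itgb1 they do, at 40.7 to 43.3 CPM and 36.1 to 41.9 CPM.

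**Figure D2:**
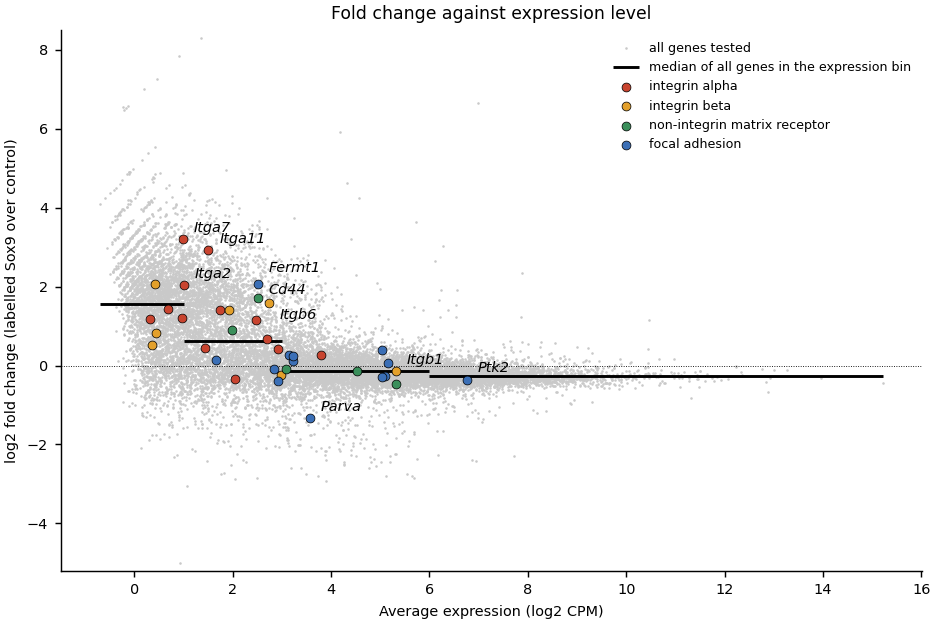
Log2 fold change of the libraries labelled Sox9 over control against average log2 CPM for the 16522 genes tested (grey), with the 38 integrin and adhesion genes coloured by class and horizontal lines at the median of all genes in 4 ranges of expression. The median falls from 1.55 at a log2 CPM under 1 to -0.26 at 6 and above, and the 6 genes called higher lie in the lower 2 ranges.

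Of the alpha subunits, 3 of 13 were higher and 0 lower, and 12 of 13 had positive values; the median log2 fold change was 1.18 (0.34 with cyclic loess, with 1 of 13 called). These counts lie near those of genes at like expression: 12 of the 13 had an average log2 CPM under 3, and of all genes under 1 and from 1 to 3 positive values were found for 87.6% and 71.7% and higher calls for 20.6% and 22.8%. Of the 4 subunits that bind collagen (Itga1, Itga2, Itga10 and Itga11), 2 were called higher. Itga11 (ENSMUSG00000032243, chr9:62677826-62783982, plus strand; GRCm38, as for the positions below), a receptor for fibrillar collagens found mainly in mesenchymal cells, measured 0.573, 0.348 and 0.814 CPM in control replicates 1, 2 and 4 and 4.94, 3.59, 4.695 and 4.61 CPM in Sox9 replicates 1 to 4. Every labelled Sox9 library thus lay above every control library, and the log2 fold change was 2.93 (SE 0.44, edgeR adjusted p = 0.000522). This call was kept in all 16 alternative analyses that tested the gene, with cyclic loess giving 1.65 (adjusted p = 0.00724). Itga2 (ENSMUSG00000015533, chr13:114833081-114932100, minus strand), which with Itgb1 forms a collagen receptor of platelets and epithelia, measured 0.478, 0.434 and 1.12 CPM in the control and 3.43, 1.61, 3.69 and 2.52 CPM in the libraries labelled Sox9. The groups did not overlap, with control replicate 4 the highest control, and the log2 fold change of 2.05 (SE 0.51, edgeR adjusted p = 0.00904) lost its call in 5 of 7 fits that left out 1 library (Control 1, Control 2, Sox9 1, Sox9 3 or Sox9 4). With cyclic loess it was 0.68 (adjusted p = 0.277). Itga1 and Itga10, the other collagen-binding subunits, had log2 fold changes of 1.44 and 1.18 (edgeR adjusted p = 0.0296 and 0.14). The control mean of Itga1 was 1.47 times that of the olfactory receptor set, and its mean in the libraries labelled Sox9 was 1.32 times that set's.

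Of the 3 laminin-binding subunits, Itga7 was called higher. Itga7 (ENSMUSG00000025348, chr10:128933818-128958282, plus strand), the laminin receptor subunit of muscle that is also present in other cells, measured 0.669, 0.174 and 0.102 CPM in the control and 2.47, 3.496, 3.13 and 2.94 CPM in the libraries labelled Sox9. The control values rested on few reads (7, 2 and 1 counts), and the 4 labelled Sox9 libraries held 18, 37, 28 and 14 counts. The log2 fold change was 3.21 (SE 0.57, edgeR adjusted p = 0.00147), called without any 1 library, and 1.49 with cyclic loess (adjusted p = 0.0428). Relative to the mean level of the olfactory receptor set in the same group, Itga7 stood at 1.47 times in the control and 4.59 times in the libraries labelled Sox9. For the other genes called higher these ratios were 4.25 and 10.7 (Itga11), 3.58 and 4.86 (Itga2), 13.499 and 18.4 (Fermt1), 13.6 and 14.6 (Cd44) and 16.2 and 15.8 (Itgb6), so that of Itgb6 was no higher. The log2 fold change exceeded the 1.61 of that set for 5 of the 6, all but Itgb6. Itga6, the partner of Itgb1 in the laminin receptor of radial glia, had the highest mean level of the alpha subunits, 1.35 ± 0.182 CPM per kilobase in the control (SD, n = 3) and 1.63 ± 0.0804 (SD, n = 4). It measured 13.9, 11.99 and 10.6 CPM against 14.97, 14.3, 15.7 and 14.1 CPM, which did not overlap, and the log2 fold change of 0.28 (SE 0.20, 95% interval -0.11 to 0.67, edgeR adjusted p = 0.295) was not called. For Itga3, another laminin receptor subunit of radial glia, the values were 5.16, 5.04 and 3.87 CPM against 5.08, 7.65, 10.7 and 6.501 CPM. These overlapped at the low end of the libraries labelled Sox9, with a log2 fold change of 0.68 (SE 0.31, edgeR adjusted p = 0.101).

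None of the 4 subunits of receptors for the RGD motif of matrix proteins was called by edgeR. Itga5, the fibronectin receptor subunit, came nearest: it measured 2.87, 2.61 and 4.17 CPM in the control and 7.97, 6.33, 6.82 and 7.34 CPM in the libraries labelled Sox9. The groups did not overlap, and the log2 fold change was 1.14 (SE 0.30, edgeR adjusted p = 0.0116). It was called in 3 of 17 alternatives: by DESeq2 (adjusted p = 0.00637), with at least 10 counts in every library (edgeR adjusted p = 0.00794) and at the threshold of 0.05. Itgav, the shared alpha subunit of several vitronectin receptors, measured 4.11, 7.21 and 7.12 CPM against 10.03, 7.94, 8.496 and 6.501 CPM and had a log2 fold change of 0.43 (SE 0.28, edgeR adjusted p = 0.262). Itga8 and Itga2b, the latter the alpha subunit of the platelet fibrinogen receptor, had log2 fold changes of 1.20 and 1.41 (edgeR adjusted p = 0.0627 and 0.0468). Itga4 and Itga9, which form a separate branch of the family, had -0.35 and 0.45 (edgeR adjusted p = 0.48 and 0.413).

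Summed over the class, the alpha subunits reached 4.83 ± 0.161 CPM per kilobase in the control (SD, n = 3) and 8.93 ± 0.887 in the libraries labelled Sox9 (SD, n = 4), and the groups did not overlap. For comparison, 13 genes at the level of the olfactory receptor set would sum to 0.344 and 1.05 CPM per kilobase. Within the sum, Itga6 made up 27.8% ± 3.17 in the control and 18.4% ± 1.07 in the libraries labelled Sox9, Itga11 2.33% ± 0.934 and 9.73% ± 0.879, and Itga7 0.792% ± 0.753 and 4.22% ± 0.912 (SD, n = 3 and 4). These shares did not overlap between groups for any of the 3 subunits, whereas the share of Itga3 did, at 17.02% ± 2.54 and 14.7% ± 4.16.

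**Figure D3:**
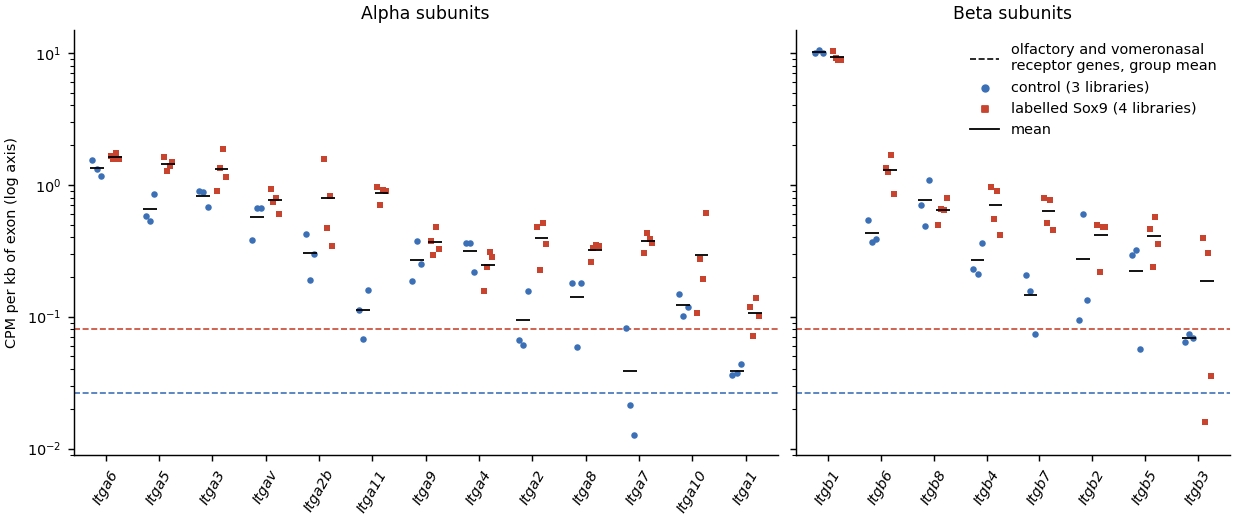
Level in CPM per kilobase of exon of each integrin alpha and beta subunit in each control library (circles) and each library labelled Sox9 (squares), with the group mean (solid line), on a logarithmic axis. The dashed lines are the means of the olfactory and vomeronasal receptor set in the control (0.0265) and in the libraries labelled Sox9 (0.0811); Itgb1 has the highest mean in both groups, and the mean of Itga1 is 1.47 and 1.32 times that of the set.

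Among the beta subunits, 1 of 7 tested was called higher (14.3%, beside 11.3% of all genes) and 0 lower (beside 3.43%), and the most abundant one was not called. Of the 7, 6 had an average log2 CPM under 3, where 20.6% (under 1) and 22.8% (1 to 3) of all genes were higher. Itgb1 measured 40.7, 43.3 and 40.7 CPM in the control and 41.9, 37.5, 36.2 and 36.1 CPM in the libraries labelled Sox9, which overlapped, and its log2 fold change was -0.13 (SE 0.14, 95% interval -0.40 to 0.14, edgeR adjusted p = 0.492). The sign of this small difference turned with cyclic loess (0.067, adjusted p = 0.794). Itgb6 (ENSMUSG00000026971, chr2:60598292-60722643, minus strand), an epithelial subunit that pairs with Itgav and binds latent TGF-beta, measured 3.82, 2.61 and 2.75 CPM in the control and 9.61, 8.88, 11.96 and 6.08 CPM in the libraries labelled Sox9. All 4 of the latter lay above the control, with a log2 fold change of 1.59 (SE 0.31, edgeR adjusted p = 0.0025) and of 1.21 with cyclic loess (adjusted p = 0.0178); the call was lost without Control 2 or without Sox9 3. Itgb8, another partner of Itgav and a radial glial subunit, measured 7.84, 5.39 and 12.00 CPM against 5.49, 7.28, 7.15 and 8.81 CPM, with a log2 fold change of -0.23 (SE 0.30, edgeR adjusted p = 0.587).

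Itgb7, a subunit of lymphocyte receptors, and Itgb4, the laminin receptor subunit of hemidesmosomes, lay just outside the threshold. Their log2 fold changes were 2.08 (SE 0.53, edgeR adjusted p = 0.0101) and 1.41 (SE 0.40, edgeR adjusted p = 0.0165), and 0.30 and 0.64 with cyclic loess. Itgb2, the leukocyte beta subunit, and Itgb5 had 0.53 and 0.83 (edgeR adjusted p = 0.547 and 0.28). Itgb3, the partner of Itga2b in platelets, held 4, 5 and 4 counts in the control and 17, 1, 16 and 1 counts in the libraries labelled Sox9, and did not pass edgeR's filter. DESeq2, which tested it, gave a log2 fold change of 1.35 (adjusted p = 0.276). Its counts divided the labelled Sox9 libraries, high in replicates 1 and 3 and at 1 count in replicates 2 and 4. The beta sum was 12.4 ± 0.397 CPM per kilobase in the control and 13.6 ± 1.39 in the libraries labelled Sox9, with overlap. For comparison, 8 genes at the level of the olfactory receptor set would sum to 0.212 and 0.649 CPM per kilobase. The share of Itgb1 in the beta sum was 82.4% ± 0.308 in the control and 68.7% ± 4.81 in the libraries labelled Sox9. That of Itgb6 was 3.49% ± 0.833 and 9.40% ± 2.02 (SD, n = 3 and 4). Neither share overlapped between groups, though Itgb1 itself was not called (log2 fold change -0.13).

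Among the 5 receptors outside the integrin family, 1 was called higher (beside 11.3% of all genes, and 22.8% of those with an average log2 CPM from 1 to 3, the range of this receptor) and 0 lower (beside 3.43%). Cd44 (ENSMUSG00000005087, chr2:102811141-102901665, minus strand), which binds hyaluronan and is used by glial and mesenchymal cells, measured 1.53, 1.82 and 3.97 CPM in the control and 7.14, 5.67, 11.5 and 7.76 CPM in the libraries labelled Sox9. The groups did not overlap, and the log2 fold change was 1.72 (SE 0.39, edgeR adjusted p = 0.0053) and 1.31 with cyclic loess (adjusted p = 0.0279). Without Control 1, Control 2 or Sox9 3 it was not called. Cd47, a thrombospondin receptor that binds integrins in the same membrane, had the highest mean level of these receptors and measured 58.3, 46.6 and 35.8 CPM against 27.9, 30.7, 38.5 and 38.2 CPM. Its log2 fold change was -0.48 (SE 0.18, edgeR adjusted p = 0.0575), and the highest labelled Sox9 library lay above the lowest control. The collagen-activated receptor kinase Ddr1 measured 26.1, 23.1 and 22.7 CPM against 20.6, 25.3, 20.8 and 19.7 CPM, with a log2 fold change of -0.14 (SE 0.17, edgeR adjusted p = 0.547). Its relative Ddr2 had 0.89 (edgeR adjusted p = 0.151) and dystroglycan, Dag1, -0.089 (edgeR adjusted p = 0.847).

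Of the focal adhesion proteins, 1 of 13 tested was higher (7.69%, beside 11.3% of all genes) and 1 lower (7.69%, beside 3.43%), and the median log2 fold change was 0.075. Fermt1 and Fermt2 encode 2 of the 3 kindlins, which bind the beta tail and activate integrins. Fermt1 (ENSMUSG00000027356, chr2:132904389-132945906, minus strand), the epithelial kindlin, measured 2.49, 0.782 and 2.85 CPM in the control and 9.48, 7.28, 7.94 and 9.23 CPM in the libraries labelled Sox9. The groups did not overlap, and the log2 fold change was 2.06 (SE 0.39, edgeR adjusted p = 0.00199), or 1.68 with cyclic loess (adjusted p = 0.0099), with a call in all 16 alternatives that tested it. Fermt2, the kindlin present in most tissues, measured 40.1, 36.9 and 31.9 CPM against 30.2, 30.05, 27.6 and 31.2 CPM. Every labelled Sox9 library lay below every control, with a log2 fold change of -0.29 (SE 0.15, edgeR adjusted p = 0.151) that was not called. Per kilobase of exon the mean level of Fermt2 was 7.0 ± 0.796 CPM in the control and 5.74 ± 0.297 CPM in the libraries labelled Sox9, and that of Fermt1 0.358 ± 0.194 and 1.49 ± 0.184 CPM (SD, n = 3 and 4). Fermt3, the kindlin of blood cells, had a log2 fold change of 0.15 (edgeR adjusted p = 0.792).

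The one gene called lower belongs to the complex of Ilk, PINCH and parvin. Parva (ENSMUSG00000030770, chr7:112427505-112591692, plus strand), the parvin of most tissues, measured 14.2, 20.2 and 18.1 CPM in the control and 3.57, 7.18, 10.6 and 6.08 CPM in the libraries labelled Sox9. No library of one group reached the other, and the log2 fold change was -1.33 (SE 0.29, edgeR adjusted p = 0.00468). With cyclic loess the value was -1.45 (adjusted p = 0.0133), and the call was lost without Control 2, Control 4, Sox9 1, Sox9 2 or Sox9 4. Lims1, the PINCH protein, measured 30.9, 42.2 and 39.4 CPM against 28.8, 27.3, 30.7 and 38.6 CPM, with a log2 fold change of -0.26 (SE 0.17, edgeR adjusted p = 0.248). Ilk held 0, 3 and 0 counts in the control and 0, 2, 0 and 2 counts in the libraries labelled Sox9, at or under the floor of 3 counts in every library. The genes Rrp8 and Taf10 overlap 68.3% of its span, and how reads in the overlap were counted is not given in the sources used here. Among the paralogues of this complex, Parvb and Lims2 were called higher. Parvg was not (log2 fold change -0.053, edgeR adjusted p = 0.968). These paralogues were named after their values were seen. Of all genes, 22.8% were higher at an average log2 CPM from 1 to 3, the range of Parvb. Under 1, the range of Lims2 and Parvg, 20.6% were. Parvb measured 0.6103 to 1.62 CPM in the control and 3.59 to 5.701 CPM in the libraries labelled Sox9 (log2 fold change 1.95, SE 0.42, edgeR adjusted p = 0.00395; 1.10 with cyclic loess, adjusted p = 0.0709). Lims2 held 0, 2 and 0 counts in the control and 28, 5, 8 and 6 counts in the libraries labelled Sox9, with replicate 1 well above the other 3 (edgeR adjusted p = 0.00633; adjusted p = 0.465 with cyclic loess).

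**Figure D4:**
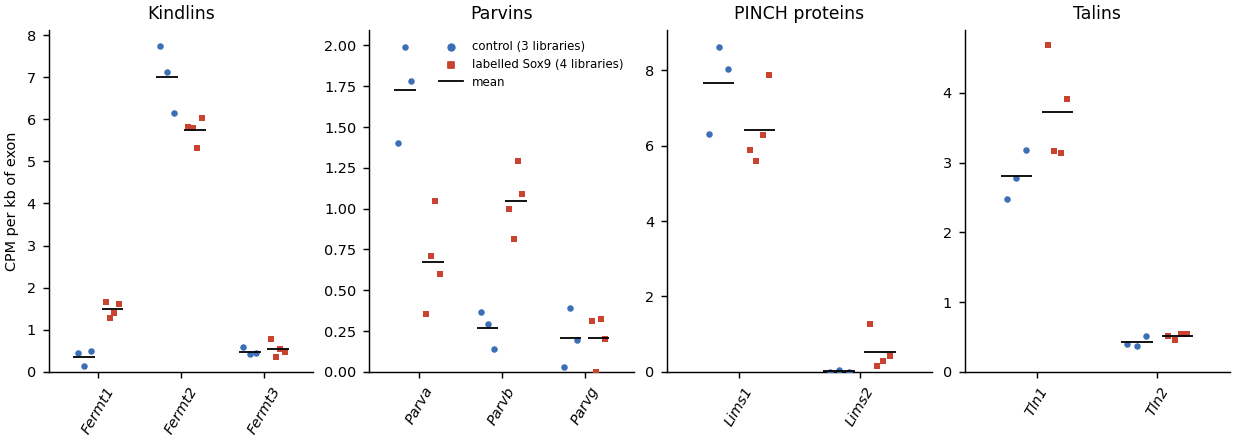
Level in CPM per kilobase of exon, on linear axes from 0 that differ between panels, of kindlins, parvins, PINCH genes and talins in each control library (circles) and each library labelled Sox9 (squares), with the group mean (line). Fermt1 and Parvb lie higher and Parva lower in every library labelled Sox9 than in any control library.

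Of the 14 focal adhesion genes, focal adhesion kinase had the highest mean level per length in the control, 10.5 ± 0.954 CPM per kilobase (SD, n = 3). Ptk2 measured 136, 116 and 117 CPM in the control and 92.3, 106, 100.4 and 86.6 CPM in the libraries labelled Sox9. Each labelled Sox9 library lay below each control, with a log2 fold change of -0.35 (SE 0.12, edgeR adjusted p = 0.0375) that missed the threshold and was -0.11 with cyclic loess. Genes at its expression level had a median of -0.26. Bcar1, the p130Cas scaffold, measured 30.6, 33.9 and 38.5 CPM against 29.7, 42.99, 38.2 and 33.1 CPM (log2 fold change 0.075, SE 0.17, edgeR adjusted p = 0.761). Tln1, the talin of most tissues, measured 24.3, 27.2 and 31.2 CPM against 45.9, 31.1, 30.7 and 38.4 CPM (log2 fold change 0.40, SE 0.18, edgeR adjusted p = 0.0971). Tln2, Vcl (vinculin), Pxn, Src and Zyx (zyxin) had log2 fold changes of 0.27, 0.12, 0.24, -0.078 and -0.39, with edgeR adjusted p-values from 0.318 to 0.864. Epha1 overlaps 16.3% of the span of Zyx.

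**Figure D5:**
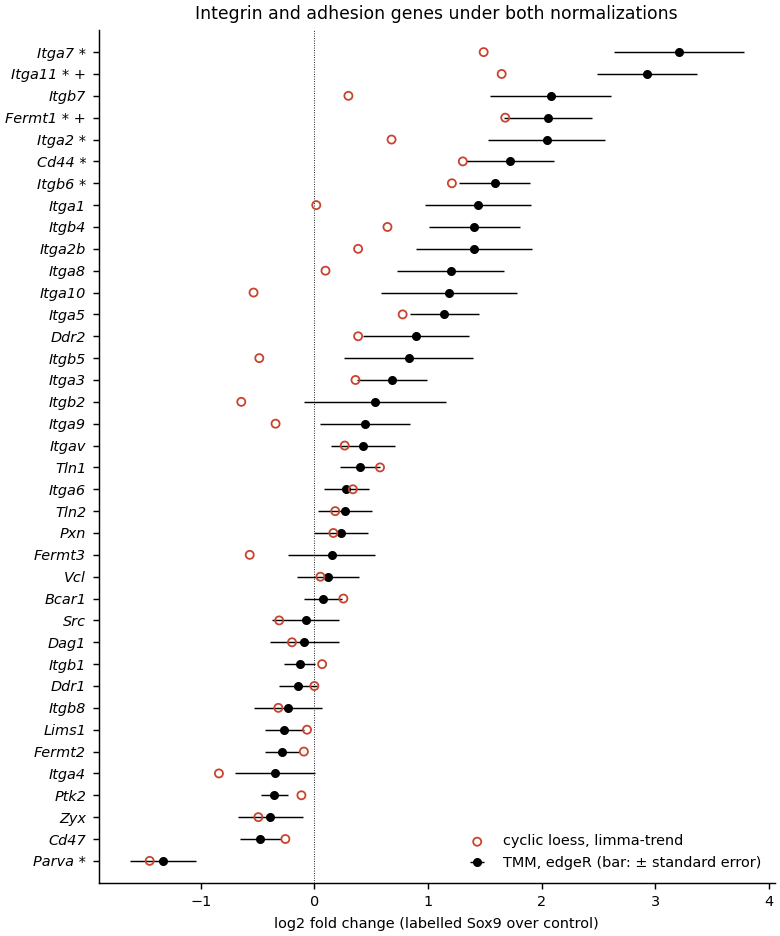
Log2 fold change of the libraries labelled Sox9 over control for each of the 38 tested genes, under TMM scaling with edgeR (filled, bars are the standard error) and under cyclic loess with limma (open). A star marks the 7 genes called with TMM and a plus the 2, Itga11 and Fermt1, called with cyclic loess.

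The proximal promoters of the 2 genes that were called in every alternative that tested them are printed to show what the annotated start of each holds. They are the 250 bases before the RefSeq start (GRCm38.p6), 5′ to 3′ on the strand of the gene, and capitals mark a match to AACAAT or ACAAAG, 2 spellings of the motif of SOX proteins, searched on both strands.
Fermt1 promoter (chr2:132946037-132946286): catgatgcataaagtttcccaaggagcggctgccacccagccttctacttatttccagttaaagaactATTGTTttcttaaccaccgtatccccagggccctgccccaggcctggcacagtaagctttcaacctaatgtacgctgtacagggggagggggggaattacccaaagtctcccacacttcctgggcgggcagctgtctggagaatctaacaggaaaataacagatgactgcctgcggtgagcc
Itga11 promoter (chr9:62677605-62677854): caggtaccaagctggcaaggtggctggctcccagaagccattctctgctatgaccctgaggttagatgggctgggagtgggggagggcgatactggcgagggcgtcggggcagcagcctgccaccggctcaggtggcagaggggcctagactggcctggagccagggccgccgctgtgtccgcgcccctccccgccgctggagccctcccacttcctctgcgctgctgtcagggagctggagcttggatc
The Fermt1 window lies on the minus strand and holds 1 match, ATTGTT (the reverse complement of AACAAT), 182 bases before the start. That of Itga11, on the plus strand, holds none of these letters. Either spelling was found in 24.04% of all 32851 promoter windows (AACAAT in 9.42%, ACAAAG in 16.5%) and in 8 of 42 windows (19.0%) of the 31 integrin and adhesion genes with an entry. A match describes the letters and not binding.

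The wider pathway was read from 5 lists of genes outside the 40. Over all lists, 24 of 127 tested were higher (18.9%, beside 11.3% of all genes) and 5 lower (3.94%, beside 3.43%), with a median log2 fold change of 0.058; with cyclic loess 5 were higher and 6 lower. Of 30 matrix ligands of integrins, 9 were higher and 2 lower, with a median of 1.21; with cyclic loess 3 were higher and 3 lower, with a median of 0.40. Of the 16 ligands with an average log2 CPM from 1 to 3, 6 were higher, beside 22.8% of all genes there, of the 7 under 1, 1 was higher, beside 20.6%, and of the 6 from 3 to 6, 2 were higher and 2 lower, beside 3.24% and 4.59%. Tnc (tenascin C) measured 41.7 to 129.5 CPM in the control and 11.2 to 16.6 CPM in the libraries labelled Sox9 and was lower (log2 fold change -2.75, SE 0.29, edgeR adjusted p = 5.07e-05; adjusted p = 0.000531 with cyclic loess). Vwf (von Willebrand factor, made by endothelial cells and megakaryocytes) measured 1.56 to 4.07 CPM in the control and 11.4 to 21.6 CPM in the libraries labelled Sox9 and was higher (log2 fold change 2.53, SE 0.33, edgeR adjusted p = 0.000223; adjusted p = 0.000531 with cyclic loess). Vcam1, a ligand of integrins with Itga4, measured 11.9 to 28.2 CPM in the control and 3.71 to 5.86 CPM in the libraries labelled Sox9 and was lower (log2 fold change -2.07, SE 0.29, edgeR adjusted p = 0.000326; adjusted p = 0.0014 with cyclic loess). Of 35 further focal adhesion proteins, 7 were higher and 3 lower, with a median of 0.060. Sorbs3 (vinexin) measured 10.7 to 17.5 CPM in the control and 2.33 to 4.25 CPM in the libraries labelled Sox9 and was lower (log2 fold change -2.03, SE 0.28, edgeR adjusted p = 0.000305; adjusted p = 0.000755 with cyclic loess). Flna (filamin A) measured 141 to 172 CPM in the control and 69.98 to 106 CPM in the libraries labelled Sox9 and was lower (log2 fold change -0.82, SE 0.14, edgeR adjusted p = 0.00107; adjusted p = 0.015 with cyclic loess). Kank1, a talin-binding protein, measured 1.05 to 3.13 CPM in the control and 5.37 to 15.2 CPM in the libraries labelled Sox9 and was higher (log2 fold change 2.46, SE 0.44, edgeR adjusted p = 0.00148; adjusted p = 0.00879 with cyclic loess). Of 37 signalling proteins, 3 were higher and 0 lower: Cass4, a relative of p130Cas (2.56, SE 0.49, edgeR adjusted p = 0.00207), Apbb1ip, which recruits talin to integrins (2.01, SE 0.41, edgeR adjusted p = 0.0031), and the exchange factor Arhgef6 (1.73, SE 0.44, edgeR adjusted p = 0.00921), and none of the 3 was called with cyclic loess. Of 13 other integrin subunits and partners, 2 were higher and 0 lower, the leukocyte subunits Itgal (2.56, SE 0.44, edgeR adjusted p = 0.00115) and Itgae (2.36, SE 0.44, edgeR adjusted p = 0.00197), and cyclic loess kept the call of Itgal (adjusted p = 0.00773) and not that of Itgae (adjusted p = 0.0587). Of 12 other matrix receptors, 3 were higher and 0 lower: the scavenger receptor Cd36 (3.00, SE 0.56, edgeR adjusted p = 0.00189), the laminin receptor Bcam (3.71, SE 0.75, edgeR adjusted p = 0.0031) and the proteoglycan Cspg4 (2.85, SE 0.62, edgeR adjusted p = 0.00458), which is also one of the oligodendrocyte precursor markers. With cyclic loess their adjusted p-values were 0.0336, 0.0748 and 0.269.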

How the data were processed

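Gene counts from RNA-Seq of 7 libraries were used. The authors trimmed the reads, aligned them with STAR 2.5.2b to GRCm38 (mm10) after bcl2fastq 2.17.1.14, per the labels and the study's methods, counted them over Ensembl genes and deposited raw counts without normalisation; strand and the treatment of overlapping genes are not given in the sources used here. The FPKM values that the authors deposited were used only to check their length: for 37 of 40 genes it was within 2% of the whole gene span and for 0 within 2% of the exonic length, so levels per kilobase were computed from the counts and the union of exons (GENCODE M21). The authors' own comparisons were not used.

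Libraries were grouped by their titles. Counts were filtered (filterByExpr), scaled by TMM and fitted with group as the only term in edgeR 4.0.16 (R 4.3.3; two-sided quasi-likelihood test, Benjamini-Hochberg over 16522 genes, adjusted p under 0.01). CPM values are TMM-scaled. Cyclic loess values came from limma 3.58.1 with a prior count of 2 and DESeq2 1.42.0 was run with its defaults; the other alternatives were size factors of DESeq2, an unfiltered fit, a minimum of 10 counts per library, protein-coding genes only, a threshold of 0.05, a test against a 1.5-fold change (glmTreat), replicate numbers as a block and each library left out. The edgeR, DESeq2 and cyclic loess fits were also run on simulated counts with known fold changes, and the outcome is not given here. That simulation held no trend of fold change with expression, so it does not test the fits under such a trend. Fold changes of weak genes rest on few counts, and depth (4429704 to 12907778 counts) limits their precision. Depth also went largely with the label, and its part in the differences was not tested. The labels call the libraries biological replicates.

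The genes, lists and tests were chosen with earlier results of these data known, and the split of alpha subunits by ligand was set after their values were seen. Values per library are given for called genes, for genes whose call changes under cyclic loess and for the 4 alpha subunits, 3 beta subunits, 2 other receptors and 5 focal adhesion genes with the highest level per length. Up to 3 called genes with the smallest p are named per pathway list. RefSeq promoters (GRCm38.p6) were matched by symbol for 31 of 40 genes.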

Additional observations from a re-analysis of the deposited data

Results flagged for a closer look

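Itgb2, the leukocyte beta subunit, had 1 labelled Sox9 library far from the other 3: replicate 2 measured 0.661 CPM, and the others 1.45 to 1.51 CPM. The gap took up 0.932 of the range of the 4 libraries, above Dixon's 95% critical value. These values rest on few reads, with 11, 7, 13 and 7 counts in Sox9 replicates 1 to 4. Control replicates 1, 2 and 4 held 3, 21 and 4 counts. Among the 38 genes examined in this way, chance flags about 1 group in 20.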

How the results depend on the processing

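Over 17 alternative settings, 632 log2 fold changes of single integrin and adhesion genes were recomputed; 569 kept their direction and their side of the threshold, 30 lost a call, 10 gained one and 23 changed sign, none of them a called gene. The causes were not tested, except that the filter of 10 counts and the 1.5-fold test call fewer genes by their construction. The 6 higher and 1 lower calls became 11 and 2 at an adjusted p under 0.05, 3 and 0 with at least 10 counts in every library, 2 and 0 with cyclic loess, 3 and 0 with the 1.5-fold test, and 3 to 6 and 0 to 1 with 1 library left out. The pathway lists (24 higher, 5 lower) gave 10 higher with at least 10 counts, 5 with cyclic loess, 12 with the 1.5-fold test and 13 to 20 with 1 library left out (4 to 6 lower), and 15 lower at 0.05, 13 with DESeq2 and 15 without a filter. All genes (1862 higher, 567 lower) gave 3616 and 1787 at 0.05, 638 and 204 with at least 10 counts, 363 and 284 with cyclic loess, 889 and 143 with the 1.5-fold test, 2661 and 1452 without a filter, 2066 and 1391 with DESeq2, and 827 to 1590 and 208 to 475 with 1 library left out. The share of higher calls was 76.7% with edgeR, 59.8% with DESeq2 and 56.1% with cyclic loess. Sox9 was past 0.05 at -0.68, was called at -0.78 without a filter and ranged from -0.99 to -0.37 with 1 library left out.

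Deviations of same-numbered libraries from their group means had correlations of -0.036, 0.12 and -0.0048. For libraries with different numbers the correlations ranged from -0.095 to 0.078. Pairing by replicate number was not seen, but so few libraries cannot decide it. With the title numbers as a replicate block, 2 integrin and adhesion genes were higher and 1 lower, 5 and 4 in the pathway lists, and 400 and 218 of all genes; with the numbers of the descriptions, which renumber the third control, 5 and 1, 17 and 5, and 1034 and 353.

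Signs changed for uncalled genes. With cyclic loess these were Itgb5 (-0.49), Itgb2 (-0.64), Itga10 (-0.54), Itga9 (-0.34), Fermt3 (-0.57) and Itgb1 (0.067). With at least 10 counts they were Itgb1 (0.0058), Src (0.062) and Dag1 (0.057), with DESeq2 Bcar1 (-0.0056), without a filter Bcar1 (-0.011), and with the block of description numbers Src (0.041). With 1 library left out, values ranged over -0.25 to 0.13 for Src, -0.25 to 0.21 for Dag1, -0.018 to 0.18 for Bcar1, -0.066 to 0.35 for Vcl, -0.069 to 0.35 for Fermt3 and -0.47 to 0.13 for Itgb8.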
